A study of Caenorhabditis elegans with 23 samples.

Results

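Sperm genes of Caenorhabditis elegans were read in whole-worm RNA on 23 single-sample arrays. The set was chosen by name: all genes with an spe, fer, ssp or nspd symbol and a number, plus gsp-3, gsp-4, snf-10, try-5 and swm-1. Of the 65 symbols that meet this rule, 49 had a probe set naming only that gene, out of 17118 genes measured that way, and each was read on its brightest probe set. Another 8 (nspd-3, nspd-5, nspd-6, nspd-11, ssp-9, ssp-11, ssp-32 and ssp-36) are named only on probe sets of several genes, and 8 more were not analysed here. No filter on low values was used, so all 49 genes were tested in every comparison. On day 8, 23 of them lay above the dimmest 40 percent of probe sets, at L3 there were 37, and 10 lay below it at both ages. Sequences of these genes were not used here.

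The worms were glp-1(e2141ts) mutants or wild type (WT, strain N2). The glp-1 gene encodes the Notch-type receptor that germline stem cells need, the allele is temperature-sensitive, and per the labels these mutants form only a few meiotic germ cells. Both genotypes received either ash-2 RNAi or the empty vector (EV); ASH-2 is part of a complex that methylates histone H3 at lysine 4. Collection was on day 8, which the labels call mid-life, and at an age labelled L3. The groups were day 8 glp-1 ash-2 RNAi, day 8 glp-1 EV and day 8 WT ash-2 RNAi with 3 arrays each, day 8 WT EV with 2, and L3 glp-1 ash-2 RNAi, L3 glp-1 EV, L3 WT ash-2 RNAi and L3 WT EV with 3 each. All worms were grown at 20 degrees per the labels, and whether the mutants met a restrictive temperature is not stated there. The labels do not state whether replicate arrays were grown as separate cultures, so the p-values measure the spread between these samples, which may be technical.

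A C. elegans hermaphrodite makes its sperm first, then switches its germline to oocytes for the rest of its life. Spermatocytes pack major sperm protein (MSP) into fibrous bodies attached to membranous organelles, divide into spermatids, and the spermatids later activate into crawling spermatozoa when the organelles fuse with the cell surface. Mature sperm make almost no new RNA, so sperm transcripts are made chiefly in spermatocytes. Males add a second activation route, in which a protease of the seminal fluid acts on spermatids and a secreted inhibitor holds it back.

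The labels were checked first. Of the 4 probe sets for ash-2 itself, 3 read higher in the RNAi arrays than in EV arrays in all 4 comparisons (log2 changes of 4.54 to 8.29). The other read lower (−1.82 to −0.24), and its fall passed in day 8 WT worms only (limma adjusted p = 2.35e-04). In day 8 glp-1, L3 glp-1 and L3 WT worms its adjusted p was 0.0786, 0.345 and 0.343, so a fall of ash-2 RNA is not shown there. Directions below are those of the labelled arrays. An array correlated on average at 0.983 to 0.997 with the others of its group, and 4 of 23 correlated best with an array of another group. Both day 8 WT EV arrays were among these 4, at 0.9897 with each other and at 0.9925 and 0.9898 with the nearest array of another group, so each comparison with day 8 WT EV worms rests on 2 arrays no closer to each other than to the nearest array of another group. Array medians lay between 4.89 and 5.01 on day 8 and between 5.72 and 5.91 at L3, so levels at the 2 ages are set side by side only as differences from the array median. Arrays labelled L3 held adult and oocyte transcripts. The adult-stage list (yolk protein genes and the adult collagen col-19) averaged 11.9 to 13 on the log2 scale in the L3 arrays, with col-19 at 12.4 ± 0.4 in L3 glp-1 EV and 12.3 ± 0.3 in L3 WT EV (SD, n = 3 each). The oocyte list averaged 9.31 to 9.98 in L3 WT arrays, and moulting genes averaged −0.33 to 0.93 relative to the array median in day 8 arrays against 3.57 to 4.80 in L3 arrays.

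Sperm genes were mostly low in the day 8 groups and stood highest in L3 WT worms. Relative to the array median, 37 of the 49 genes were lower on day 8 than at L3 in WT EV worms, 25 of them by more than 1 log2 unit, and the median over the genes was −0.68 on day 8 and 1.34 at L3. In glp-1 EV worms 28 were lower on day 8, with a median of −0.60 on day 8 and −0.23 at L3. Relative to the array median, the genes above their L3 level on day 8 in WT EV worms were nspd-8, spe-36, spe-39, spe-40, spe-43, spe-48, spe-49, spe-5, spe-51, ssp-37, swm-1 and try-5. Of these, nspd-8, spe-36, spe-49 and spe-51 lay among the dimmest 40 percent of probe sets at both ages. Array medians were lower on day 8, so a gene near the floor can stand higher relative to them without a rise in signal. Levels were not tested between ages. The map of levels across arrays shows the 2 blocks.

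**Figure D1:**
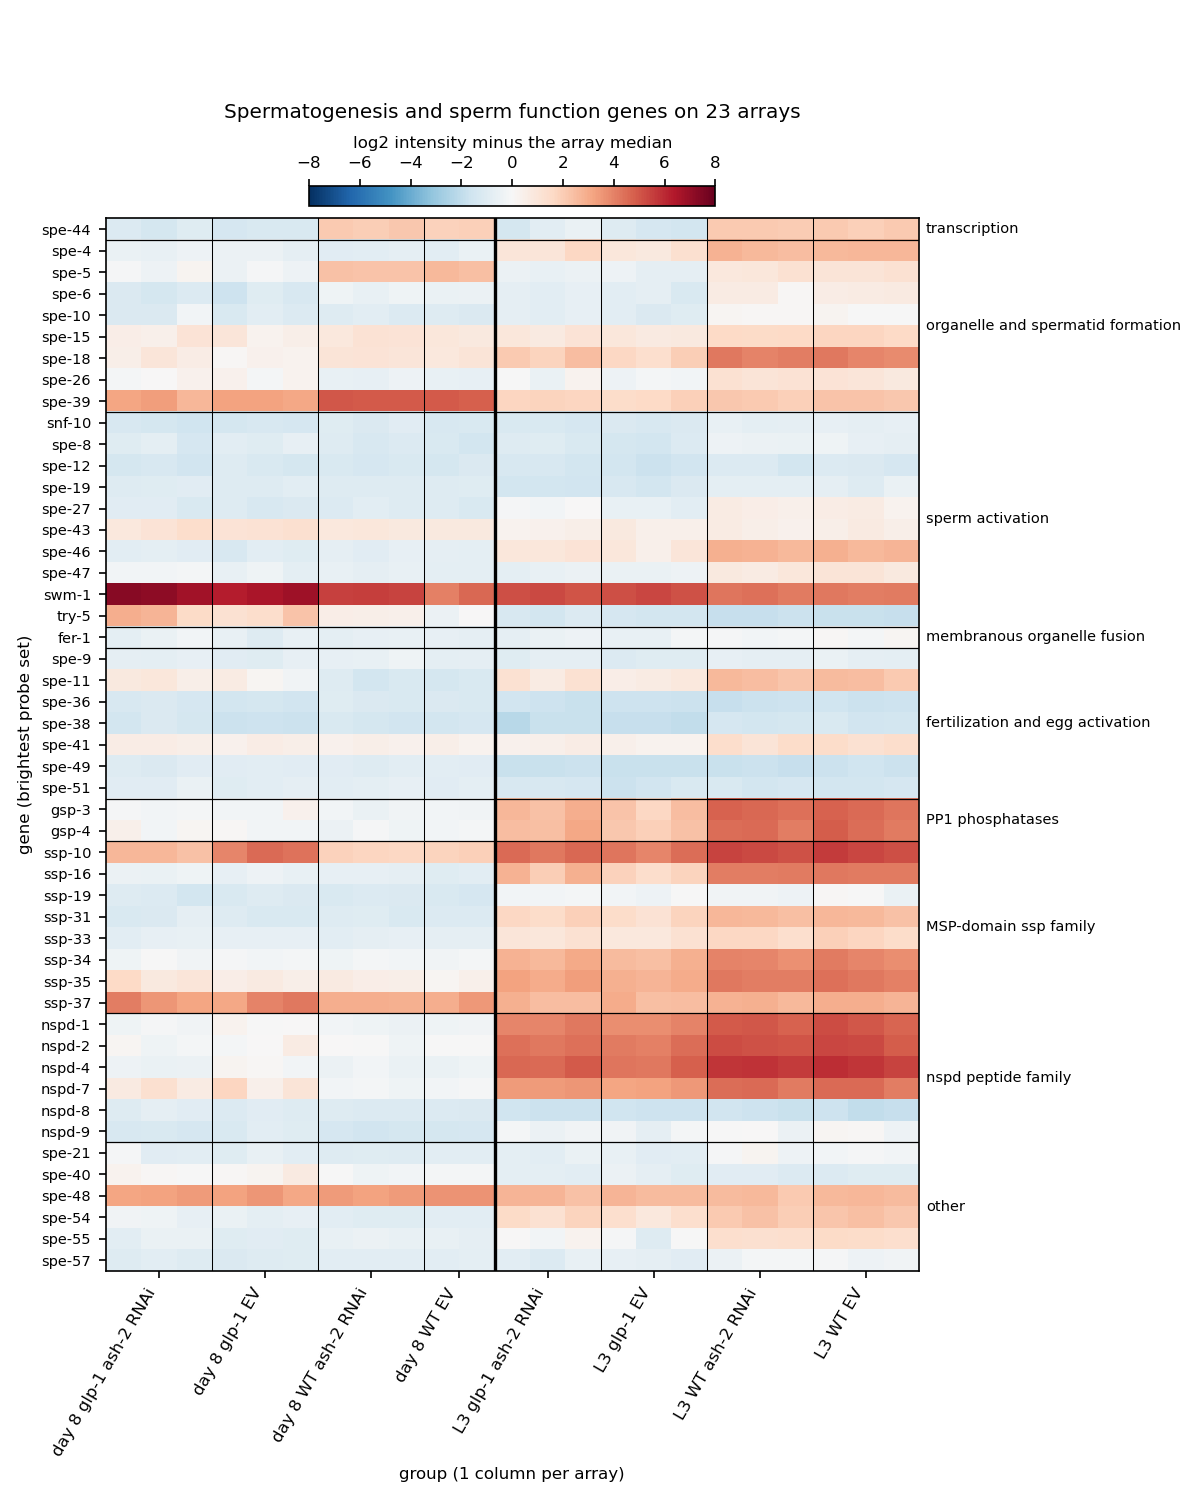
Each row is 1 of the 49 sperm genes and each column 1 array, grouped by age, genotype and treatment; colour gives the log2 intensity minus that array's median and is to be read along a row, since probe sets differ in brightness. Most rows are near or below the array median on day 8 and reddest in the 6 L3 WT arrays, with the 6 L3 glp-1 arrays paler, while swm-1 and try-5 are highest in day 8 glp-1 worms.

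At L3, sperm genes were lower in glp-1 than in WT worms under EV. Of the 49 genes 38 fell and 2 rose, where 55.5% of all 22548 probe sets passed (33.4% higher and 22.1% lower). The median change was −1.06 for the sperm genes and 0.11 for all probe sets. In whole-worm RNA fewer cells of a type and less RNA per cell cannot be told apart, and per the labels the mutants form few germ cells. The germline lists moved with the sperm genes. Of 22 meiosis genes 21 fell (median −2.81), and the list averaged 5.13 to 5.49 in L3 glp-1 arrays against 7.80 to 8.04 in L3 WT arrays. Of 15 oocyte genes 12 fell and 1 rose (median −3.23), with averages of 6.55 to 8.21 in L3 glp-1 arrays against 9.31 to 9.98 in L3 WT arrays. All 9 moulting genes rose (median 0.72). The part of these lists in the result was not tested.

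The largest change of a sperm gene at L3 was that of spe-44, which encodes a transcription regulator that turns on many sperm genes in the germline. It read 4.79, 4.35 and 4.37 in L3 glp-1 EV arrays, against 7.97, 7.77 and 7.95 in L3 WT EV arrays. The groups lay far apart, and the fall of 10.5-fold (log2 change −3.39 ± 0.18, limma adjusted p = 8.65e-09; ± is the standard error) was larger than that of any other sperm gene.

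Genes for fibrous bodies, membranous organelles and spermatid formation fell without exception, 8 of 8 with a median of −1.49. spe-18, needed to pack MSP into fibrous bodies, read 7.47, 7.06 and 7.80 in L3 glp-1 EV arrays, against 10.11, 9.78 and 9.67 in L3 WT EV arrays. The 2 groups did not overlap (−2.41 ± 0.19, adjusted p = 3.16e-07), but its probe set is a shared one, which can also bind other transcripts. spe-6, a casein kinase I-like enzyme of fibrous body assembly, read 4.96, 5.03 and 4.58 in L3 glp-1 EV arrays, against 6.50, 6.55 and 6.61 in L3 WT EV arrays. That is a 3.24-fold fall (−1.70 ± 0.14, adjusted p = 5.11e-07), with no overlap. spe-4, a presenilin-like membrane protein, fell by 1.76, and spe-5, a subunit of the vacuolar proton pump, fell by 1.82. The smaller falls of this class were those of spe-26, an actin-associated kelch protein (−1.29), spe-10, a palmitoyltransferase (−1.13), spe-15, a myosin (−0.99), and spe-39, a vesicle trafficking protein also used outside the germline (−0.68).

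The sperm phosphatases gsp-3 and gsp-4, type 1 enzymes needed for sperm meiosis and motility, fell side by side. gsp-3 read 8.05, 7.39 and 8.28 in L3 glp-1 EV arrays, against 10.63, 10.41 and 10.15 in L3 WT EV arrays, which gave −2.49 ± 0.21 (adjusted p = 3.71e-07). gsp-4 read 7.95, 7.65 and 8.16 in L3 glp-1 EV arrays, against 10.71, 10.32 and 10.04 in L3 WT EV arrays, which gave −2.44 ± 0.21 (adjusted p = 5.78e-07). Neither gene's groups overlapped, as was so for 23.2% of all probe sets in that direction. Both are read on shared probe sets and the genes are near-identical copies, so their signals cannot be taken as separate measurements.

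Of the 10 sperm activation genes 7 fell and 2 rose. spe-46, which encodes a membrane protein of the activation pathway, read 6.67, 6.15 and 6.78 in L3 glp-1 EV arrays, against 8.72, 8.44 and 8.57 in L3 WT EV arrays. Its fall (−2.04 ± 0.15, adjusted p = 9.85e-08) was the largest of the class. spe-47, an MSP-domain protein that restrains activation, fell by 1.54, and spe-27 fell by 1.28. The tyrosine kinase gene spe-8 fell by 0.87. Changes were smaller for spe-19 (−0.63), for snf-10, a transporter-like protein that relays the seminal protease signal (−0.63 ± 0.09, adjusted p = 3.04e-05), and for spe-12 (−0.47). spe-43 did not pass (−0.12, 95% interval −0.39 to 0.15). spe-8, spe-19, snf-10 and spe-12 lay among the dimmest 40 percent of L3 probe sets, where a change may be understated.

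The 2 genes that rose at L3, swm-1 and try-5, act in the male activation route, as does snf-10, which fell. swm-1, a secreted trypsin inhibitor that keeps spermatids from activating too early and is made in somatic cells, read 10.97, 11.05 and 10.91 in L3 glp-1 EV arrays, against 10.10, 9.95 and 10.06 in L3 WT EV arrays. All mutant arrays lay above all WT arrays (0.94 ± 0.09, adjusted p = 1.45e-06). try-5, the serine protease of male seminal fluid, read 4.44, 4.27 and 4.31 in L3 glp-1 EV arrays, against 4.12, 4.08 and 4.03 in L3 WT EV arrays. This difference was small and lay among the dimmest probe sets (0.27 ± 0.10, adjusted p = 0.0311), and it did not pass without L3 glp-1 EV array 1 or without L3 WT EV array 2 or 3. Male soma genes stood at 4.42 to 4.57 on average in L3 glp-1 arrays against 4.34 to 4.52 in L3 WT arrays, and none of 8 passed.

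Genes of fertilization and egg activation changed by unlike amounts. spe-11, a sperm-delivered factor that activates the egg, read 6.32, 6.38 and 6.66 in L3 glp-1 EV arrays, against 8.42, 8.37 and 7.97 in L3 WT EV arrays. The groups were apart (−1.80 ± 0.17, adjusted p = 1.08e-06). The calcium channel gene spe-41 fell by 1.11. Among genes for sperm surface proteins, spe-38 fell by 0.58, spe-9, with EGF repeats, fell by 0.44 (± 0.09, adjusted p = 9.15e-04), and spe-49 fell by 0.22. spe-36 (−0.12, 95% interval −0.30 to 0.058) and spe-51 (−0.13, −0.39 to 0.12) did not pass. spe-38, spe-9, spe-49, spe-36 and spe-51 lay among the dimmest 40 percent of L3 probe sets, where a change may be understated. spe-11 and spe-41 lay above them. fer-1, the ferlin of membranous organelle fusion, read 5.18, 5.15 and 5.64 in L3 glp-1 EV arrays, against 6.01, 5.73 and 6.01 in L3 WT EV arrays (−0.59 ± 0.14, adjusted p = 0.00191).

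Among the ssp genes, small proteins with an MSP domain, 6 of 8 fell. ssp-16 had the largest fall of the family, reading 7.66, 7.14 and 7.58 in L3 glp-1 EV arrays against 10.08, 10.04 and 10.03 in L3 WT EV arrays (−2.59 ± 0.19, adjusted p = 1.40e-07). ssp-35 (−1.48), ssp-34 (−1.47), ssp-10 (−1.24), ssp-31 (−1.19) and ssp-33 (−0.84) followed, while ssp-37 (−0.35) and ssp-19 (−0.17) did not pass. Of the 6 nspd genes, a family of short nematode-specific peptides, 4 fell, and these 4 lay close together at −1.39 (nspd-4), −1.25 (nspd-1), −1.23 (nspd-7) and −1.06 (nspd-2). All 4 are read on shared probe sets. nspd-9 (−0.45) and nspd-8 (0.09) did not pass. Of the remaining spe genes spe-55 (−1.95), spe-54 (−1.17), spe-21 (−0.71) and spe-57 (−0.59) fell, and spe-40 (0.17) and spe-48 (−0.10) did not pass. spe-55 is the 1 gene of the set with a second probe set, on which it fell by 1.20.

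The same comparison under ash-2 RNAi, on arrays that are not part of the EV comparison, gave 35 lower and 2 higher sperm genes, where 48.9% of all probe sets passed (28.1% higher and 20.8% lower). All 35 were also lower under EV, which is 92.1% of the EV falls, and the 2 higher genes were again swm-1 and try-5. The genes lower under EV but not passing here were spe-12, spe-49 and spe-9. The median change was −0.75 for the sperm genes and 0.07 for all probe sets. spe-44 read 4.40, 4.98 and 5.32 in L3 glp-1 ash-2 RNAi arrays, against 8.00, 7.96 and 7.92 in L3 WT ash-2 RNAi arrays, again the largest change (−3.06 ± 0.18, adjusted p = 3.82e-08). spe-18 (−2.05), gsp-3 (−1.99), spe-46 (−1.85), gsp-4 (−1.79), ssp-16 (−1.66), spe-5 (−1.56) and spe-4 (−1.48) came next. spe-11 (−1.45), spe-6 (−1.26), snf-10 (−0.66) and fer-1 (−0.49) fell too, and spe-9 gave −0.17 (95% interval −0.36 to 0.030).

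On day 8 the genotypes differed in another way. Under EV 13 sperm genes were higher and 5 lower in glp-1 than in WT worms, where 54.9% of all probe sets passed (28.3% higher and 26.6% lower). The share of the 49 genes that passed was below that of all probe sets. By direction, the share higher was near that of all probe sets and the share lower was below it. Without day 8 WT EV array 1 there were 7 higher and 5 lower, and without array 2 there were 10 higher and 4 lower. The median change was 0.16 for the sperm genes and 0.04 for all probe sets. Of the 38 genes that fell at L3, 5 fell on day 8 as well (spe-44, spe-5, spe-39, spe-6 and spe-18), 8 were higher (ssp-10, spe-11, nspd-7, spe-26, spe-8, nspd-4, nspd-1 and ssp-16), and 25 did not pass. Of the 18 passing genes 14 lay above the dimmest 40 percent of day 8 probe sets, and of the 31 that did not pass 22 lay among the dimmest. Germline markers were low in the mutants. The meiosis list averaged 4.40 to 4.68 in day 8 glp-1 arrays against 8.48 to 8.80 in day 8 WT arrays, and the oocyte list 6.09 to 6.87 against 11.3 to 11.7.

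**Figure D2:**
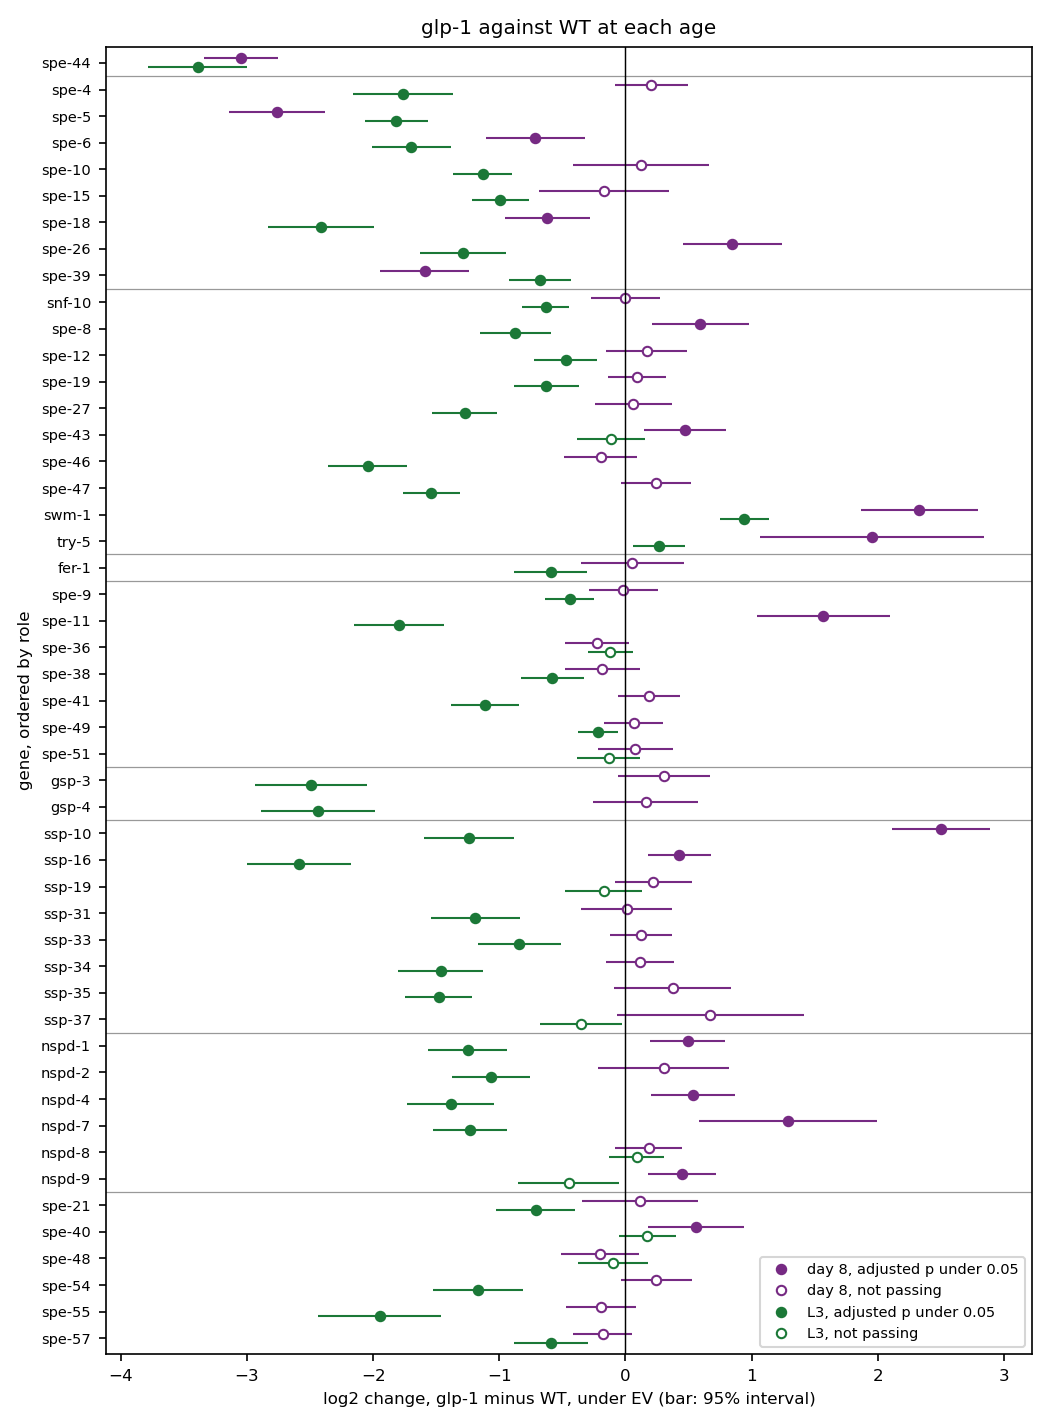
The log2 change of each sperm gene, glp-1 minus WT under EV, is shown with its 95% interval on day 8 (purple) and at L3 (green), with genes in the order of their roles and filled points passing at an adjusted p under 0.05. Most purple points lie near 0 with a median of 0.16, and most green points lie left of 0 with a median of −1.06; spe-44 and spe-5 are far left at both ages, and ssp-10, swm-1, try-5 and spe-11 are far right on day 8.

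The falls on day 8 were led by spe-44, which read 3.69, 3.77 and 3.76 in day 8 glp-1 EV arrays, against 6.77 and 6.81 in day 8 WT EV arrays. The WT arrays lay well above the mutant arrays, at an age when most other sperm genes were near the array median or below it (−3.05 ± 0.13, adjusted p = 4.28e-09). spe-5 read 4.54, 4.85 and 4.58 in day 8 glp-1 EV arrays, against 7.51 and 7.33 in day 8 WT EV arrays (−2.76 ± 0.17, adjusted p = 6.65e-08). spe-39 read 8.22, 8.21 and 8.10 in day 8 glp-1 EV arrays, against 9.83 and 9.71 in day 8 WT EV arrays (−1.59 ± 0.16, adjusted p = 3.73e-06). For these 3 genes the groups did not overlap, which held for 32.3% of all probe sets in that direction, and spe-5 and spe-39 are read on shared probe sets. spe-6 fell by 0.71 at readings of 3.38, 3.99 and 3.71 in day 8 glp-1 EV arrays against 4.36 and 4.46 in day 8 WT EV arrays, among the dimmest probe sets. spe-18 fell by 0.62.

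The largest rise on day 8 was that of ssp-10, at 8.90, 9.53 and 9.35 in day 8 glp-1 EV arrays against 6.68 and 6.83 in day 8 WT EV arrays. The groups were 5.66-fold apart on the mean and did not overlap (2.50 ± 0.18, adjusted p = 1.91e-07), on a shared probe set. swm-1 read 11.32, 11.52 and 11.76 in day 8 glp-1 EV arrays, against 8.90 and 9.51 in day 8 WT EV arrays (2.33 ± 0.21, adjusted p = 1.53e-06). try-5 read 6.24, 6.35 and 7.29 in day 8 glp-1 EV arrays, against 4.41 and 4.94 in day 8 WT EV arrays (1.95 ± 0.40, adjusted p = 0.00135). swm-1 and try-5 were higher in the mutants at both ages, while snf-10, of the same male route, fell at L3 and did not pass on day 8. The L3 rise of try-5 was small (0.27), among the dimmest probe sets, and was lost when some single arrays were left out. In neither swm-1 nor try-5 did the arrays of the genotypes overlap, where 36.9% of all probe sets on day 8 and 37.9% at L3 were higher without overlap. Of 8 male soma genes 2 rose on day 8, cwp-1 by 0.46 and trf-1 by 0.52, where 28.3% of all probe sets were higher. Under ash-2 RNAi cwp-1 was higher by 0.36 and trf-1 did not pass (−0.08). The list averaged 4.08 to 4.37 in day 8 glp-1 arrays against 4.03 to 4.17 in day 8 WT arrays. The part of male transcripts in the result was not tested.

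spe-11, which fell at L3, was higher in the mutants on day 8. It read 5.65, 5.11 and 4.73 in day 8 glp-1 EV arrays, against 3.50 and 3.68 in day 8 WT EV arrays (1.57 ± 0.24, adjusted p = 1.33e-04). nspd-7 read 6.74, 5.38 and 6.01 in day 8 glp-1 EV arrays, against 4.70 and 4.81 in day 8 WT EV arrays (1.29 ± 0.32, adjusted p = 0.00458). All mutant arrays lay above the WT arrays for both genes, with a wide spread among the mutants. Smaller rises were those of spe-26 (0.85), spe-8 (0.59), spe-40 (0.56), nspd-4 (0.54), nspd-1 (0.49), spe-43 (0.47), nspd-9 (0.45) and ssp-16 (0.43). spe-8, spe-40, nspd-4, nspd-1, spe-43, nspd-9, ssp-16 and the fall of spe-18 did not pass when 1 of the 2 day 8 WT EV arrays was left out. gsp-3 (0.31, 95% interval −0.057 to 0.67), gsp-4 (0.16, −0.25 to 0.58), snf-10 (95% interval −0.27 to 0.27), fer-1 (0.05, −0.35 to 0.46) and spe-9 (−0.02, −0.29 to 0.26) did not pass on day 8.

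Under ash-2 RNAi the day 8 comparison gave 12 higher and 5 lower genes, where 53.6% of all probe sets passed (28.2% higher and 25.4% lower), with medians of 0.14 for the sperm genes and 0.07 for all. Of the rises 7 were shared with EV, 53.8% of the EV rises and 58.3% of these. Those 7 were ssp-10, swm-1, try-5, spe-11, nspd-7, spe-26 and spe-43. Passing here and not under EV were gsp-4 (0.46), spe-4 (0.38), spe-47 (0.51), spe-54 (0.55) and ssp-35 (0.60). spe-44 read 3.86, 3.53 and 3.99 in day 8 glp-1 ash-2 RNAi arrays, against 7.02, 6.92 and 7.04 in day 8 WT ash-2 RNAi arrays (−3.20 ± 0.12, adjusted p = 1.18e-09). spe-11 read 5.76, 5.87 and 5.44 in day 8 glp-1 ash-2 RNAi arrays, against 3.87, 3.43 and 3.65 in day 8 WT ash-2 RNAi arrays. That rise of 4.11-fold was the largest under RNAi (2.04 ± 0.21, adjusted p = 5.87e-06), ahead of try-5 (2.00), swm-1 (1.63), nspd-7 (1.18), ssp-10 (0.87) and spe-26 (0.69). spe-5 (−2.34), spe-39 (−1.84), spe-6 (−0.73) and snf-10 (−0.36) fell.

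**Figure D3:**
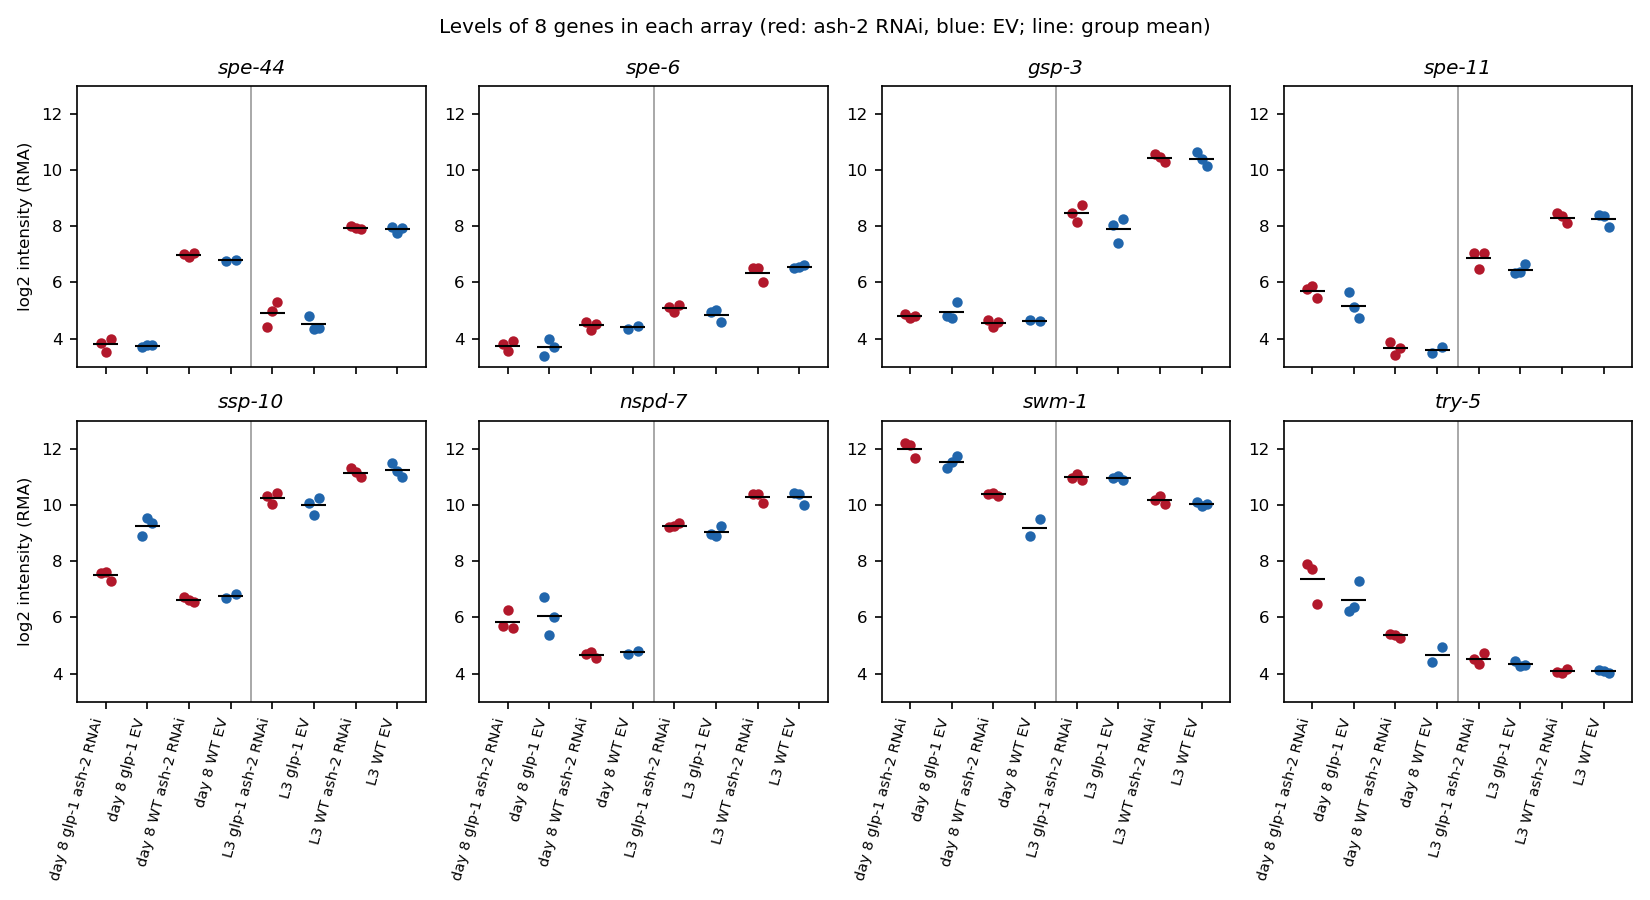
Log2 intensities of 8 sperm genes are plotted for each array, with red points for ash-2 RNAi, blue points for EV and a line at the group mean; the vertical line parts day 8 from L3, and points are to be compared within an age. spe-44 is low in glp-1 and high in WT at both ages, gsp-3 and spe-6 are lower in glp-1 than in WT at L3, and ssp-10 in day 8 glp-1 worms is lower under ash-2 RNAi than under EV, where its arrays lie at 8.90, 9.53 and 9.35.

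Whether the genotype difference itself changed with age was tested on all 23 arrays, as glp-1 minus WT on day 8 minus the same at L3, under EV. It was more positive on day 8 for 38 of the 49 genes and more negative for 2, where 52.7% of all probe sets passed (24.5% higher and 28.2% lower). The median was 1.20 for the sperm genes and −0.07 for all probe sets. All 10 activation genes, both phosphatases, 7 of 8 ssp genes, 5 of 6 nspd genes and 6 of 8 organelle and spermatid formation genes were among the 38. The largest were ssp-10 (3.74 ± 0.26, adjusted p = 2.29e-10), spe-11 (3.37 ± 0.30, adjusted p = 1.01e-08), ssp-16 (3.02), gsp-3 (2.80), gsp-4 (2.60), nspd-7 (2.52), spe-26 (2.13) and spe-4 (1.97). spe-5 (−0.95) and spe-39 (−0.92) went the other way. Of the 38 genes that fell at L3 under EV, 25 did not pass on day 8, so their positive values came mostly from the fall at L3. gsp-3, for example, averaged 4.95 in day 8 glp-1 EV and 4.64 in day 8 WT EV arrays, which did not pass. Of the 31 genes that did not pass on day 8, 22 lay among the dimmest 40 percent of probe sets, where a genotype difference may go unseen. spe-44 showed a fall at both ages, and the difference between the 2 falls did not pass (0.34, 95% interval −0.17 to 0.86). Oocyte and meiosis lists moved the opposite way to the sperm genes, with 12 of 15 oocyte genes and 19 of 22 meiosis genes more negative on day 8 (medians −3.34 and −1.54).

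RNAi against ash-2 left most sperm genes without a passing change at both ages. In L3 glp-1 worms 1 of 49 rose and none fell, where 0.798% of all probe sets passed (0.501% higher and 0.297% lower). The median change was 0.21 for the sperm genes and −0.01 for all probe sets, and 40 of the 49 were above 0. All 49 were read on the same 6 arrays, so that count is not one of separate observations. Averages over the 49 genes overlapped, at 6.44 to 6.68 in L3 glp-1 ash-2 RNAi arrays against 6.16 to 6.46 in L3 glp-1 EV arrays. The gene that passed was spe-27, a protein of the spe-8 activation group, at 5.73, 5.60 and 5.85 in L3 glp-1 ash-2 RNAi arrays against 5.23, 5.16 and 4.97 in L3 glp-1 EV arrays. The arrays did not overlap (0.61 ± 0.12, 95% interval 0.36 to 0.87, adjusted p = 0.0341). It did not pass without L3 glp-1 ash-2 RNAi array 3, without any 1 of the L3 glp-1 EV arrays, or when only those 6 arrays were fitted. ssp-16 read 8.56, 7.80 and 8.71 in L3 glp-1 ash-2 RNAi arrays, against 7.66, 7.14 and 7.58 in L3 glp-1 EV arrays, just short of passing (0.90 ± 0.19, adjusted p = 0.0508). The phosphatases gsp-3 (0.56, adjusted p = 0.268) and gsp-4 (0.56, adjusted p = 0.275), spe-11 (0.40), spe-44 (0.40), spe-9 (0.25) and spe-6 (0.23) did not pass, nor did try-5 (0.18), swm-1 (0.01), snf-10 (−0.02) and fer-1 (−0.06). The oocyte list averaged 6.67 to 8.21 in L3 glp-1 ash-2 RNAi arrays against 6.55 to 7.56 in L3 glp-1 EV arrays, which overlap, and none of its 15 genes passed (median change 0.49). Its part in the result was not tested.

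In L3 WT worms none of the 49 passed, where 0.328% of all probe sets did in limma (0.217% higher and 0.111% lower), and none had an unadjusted p under 0.05, against 6.84% of all probe sets. The changes ran from −0.20 to 0.24 with a median of −0.02. The smallest p-values were those of nspd-8 (0.19, adjusted p = 0.823), swm-1 (0.14, adjusted p = 0.903), spe-26 (0.24, adjusted p = 0.908) and spe-39 (−0.17, adjusted p = 0.908). The intervals bound what these arrays could show: −0.33 to 0.46 for spe-44, −0.39 to 0.49 for gsp-3, −0.54 to 0.37 for gsp-4, −0.30 to 0.42 for spe-11 and −0.52 to 0.11 for spe-6.

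On day 8 the RNAi comparisons each gave a few single genes. In day 8 glp-1 worms 1 sperm gene was higher and 2 were lower, where 14.8% of all probe sets passed (7.18% higher and 7.63% lower), with a median of 0.05 for the sperm genes and 0.03 for all. ssp-10 read 7.59, 7.63 and 7.31 in day 8 glp-1 ash-2 RNAi arrays, against 8.90, 9.53 and 9.35 in day 8 glp-1 EV arrays. Every RNAi array lay below every EV array, a 3.36-fold fall (−1.75 ± 0.16, adjusted p = 5.26e-05). nspd-4 read 4.56, 4.40 and 4.51 in day 8 glp-1 ash-2 RNAi arrays, against 5.21, 5.04 and 4.77 in day 8 glp-1 EV arrays (−0.52 ± 0.14, adjusted p = 0.0270). spe-47 read 4.77, 4.73 and 4.84 in day 8 glp-1 ash-2 RNAi arrays, against 4.40, 4.60 and 4.18 in day 8 glp-1 EV arrays (0.39 ± 0.11, adjusted p = 0.0432). The arrays of nspd-4 and spe-47 did not overlap either, as for 13.2% of all probe sets on the lower side and 16.0% on the higher, but neither gene passed when only these 6 arrays were fitted. nspd-4 also failed without day 8 glp-1 EV array 1 or 2 or ash-2 RNAi array 2 or 3, and spe-47 without EV array 1 or 3 or any 1 ash-2 RNAi array. try-5 (0.74), spe-11 (0.53), swm-1 (0.48), fer-1 (0.21), gsp-4 (0.19), spe-9 (0.11), spe-6 (0.05), spe-44 (0.05), snf-10 (−0.12) and gsp-3 (−0.14) did not pass.

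In day 8 WT worms 1 of 49 rose and none fell, where 1.47% of all probe sets passed (0.577% higher and 0.891% lower), with a median of 0.03 for the sperm genes and 0.01 for all. That gene was swm-1, at 10.40, 10.44 and 10.32 in day 8 WT ash-2 RNAi arrays against 8.90 and 9.51 in day 8 WT EV arrays. The RNAi arrays lay close together and above both EV arrays (1.18 ± 0.21, adjusted p = 0.0201), and the rise did not pass without day 8 WT EV array 1 or any 1 of the ash-2 RNAi arrays. Its partner try-5 read 5.43, 5.38 and 5.27 in day 8 WT ash-2 RNAi arrays, against 4.41 and 4.94 in day 8 WT EV arrays. This did not pass (0.69, 95% interval −0.20 to 1.58, adjusted p = 0.896). spe-44 (0.21), spe-9 (0.20), snf-10 (0.24), spe-6 (0.07), spe-11 (0.06), fer-1 (0.02), gsp-3 (−0.09) and gsp-4 (−0.11) did not pass.

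**Figure D4:**
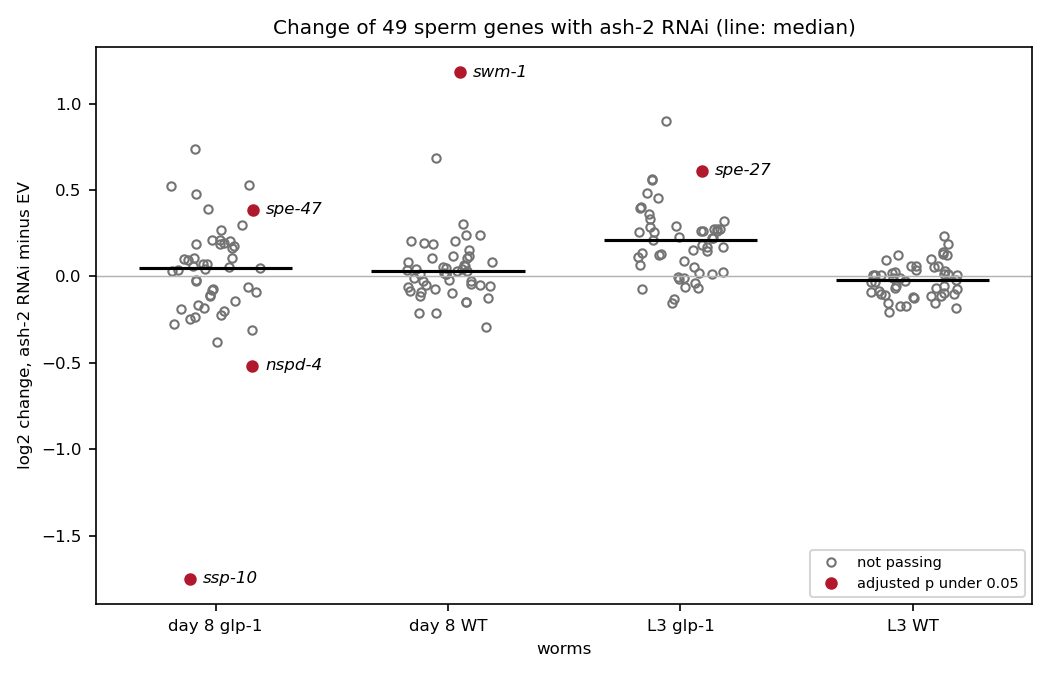
Each point is the log2 change of 1 of the 49 sperm genes with ash-2 RNAi (RNAi minus EV) in day 8 glp-1, day 8 WT, L3 glp-1 and L3 WT worms; lines are medians and filled points pass at an adjusted p under 0.05. In that order the medians are 0.05, 0.03, 0.21 and −0.02, the L3 WT points are packed between −0.20 and 0.24, and ssp-10 in day 8 glp-1 worms stands at −1.75.

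The RNAi by genotype interaction, the change with ash-2 RNAi in glp-1 minus that in WT, asks whether the response depends on the genotype. At L3 none of the 49 passed in limma and 0.0% of all probe sets did. At an unadjusted p under 0.05 there were 4 sperm genes, against 8.24% of all probe sets. These were spe-27 (0.58, adjusted p = 0.446), ssp-16 (0.93, adjusted p = 0.446), ssp-35 (0.43, adjusted p = 0.552) and gsp-4 (0.65, adjusted p = 0.599). The median was 0.22 for the sperm genes and −0.02 for all. On day 8 only ssp-10 passed among the 49, where 4.0% of all probe sets did (1.67% higher and 2.33% lower). Its RNAi arrays in WT worms read 6.73, 6.63 and 6.54 against 6.68 and 6.83 under EV, so the fall in glp-1 had no counterpart there (interaction −1.63 ± 0.24, 95% interval −2.15 to −1.10, adjusted p = 0.00478). For swm-1 the interaction was −0.71 (95% interval −1.33 to −0.085, adjusted p = 0.214), so its passing change in WT alone is not shown to differ between the genotypes. nspd-4 (−0.53, adjusted p = 0.194) and snf-10 (−0.36, adjusted p = 0.298) did not pass.

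Other sperm genes gave the setting. Of the 23 msp genes, which encode the major sperm protein of fibrous bodies and the sperm cytoskeleton, 13 were higher in glp-1 worms under EV on day 8 (median 1.01), and all fell at L3 (median −0.95). Over all probe sets 28.3% were higher and 26.6% lower on day 8, and 33.4% and 22.1% at L3. The msp list averaged 6.01 and 4.98 in the 2 day 8 WT EV arrays, against 6.43 to 6.73 in day 8 glp-1 EV arrays. Whether msp probe sets bind transcripts of other msp genes was not tested. A further list of 17 measured sperm genes had 2 rises and 3 falls on day 8 (median 0.04), and 16 falls at L3 (median −1.48). The genes zipt-7.1 and ssq-1 of that list, and msp-31, are named after their values were seen. zipt-7.1, a zinc transporter gene of sperm activation, fell by 4.54 on day 8 and fell by 3.06 at L3. ssq-1 changed by 2.72 on day 8, by −1.39 at L3 and by −1.68 with ash-2 RNAi in day 8 glp-1 worms, beside 2.50, −1.24 and −1.75 for ssp-10. Of the msp genes 5 fell with ash-2 RNAi in day 8 glp-1 worms and none rose (median −0.69), msp-31 by 1.78. Over all probe sets 7.63% were lower and 7.18% higher in that comparison. The msp list averaged 5.70 to 6.15 in day 8 glp-1 ash-2 RNAi arrays against 6.43 to 6.73 in day 8 glp-1 EV arrays. Genes of the sperm or oocyte decision and germline sex determination fell in 19 of 23 cases at each age under EV and rose in 1 (medians −2.30 on day 8 and −0.93 at L3). The plot of list medians sets these beside the germline markers.

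**Figure D5:**
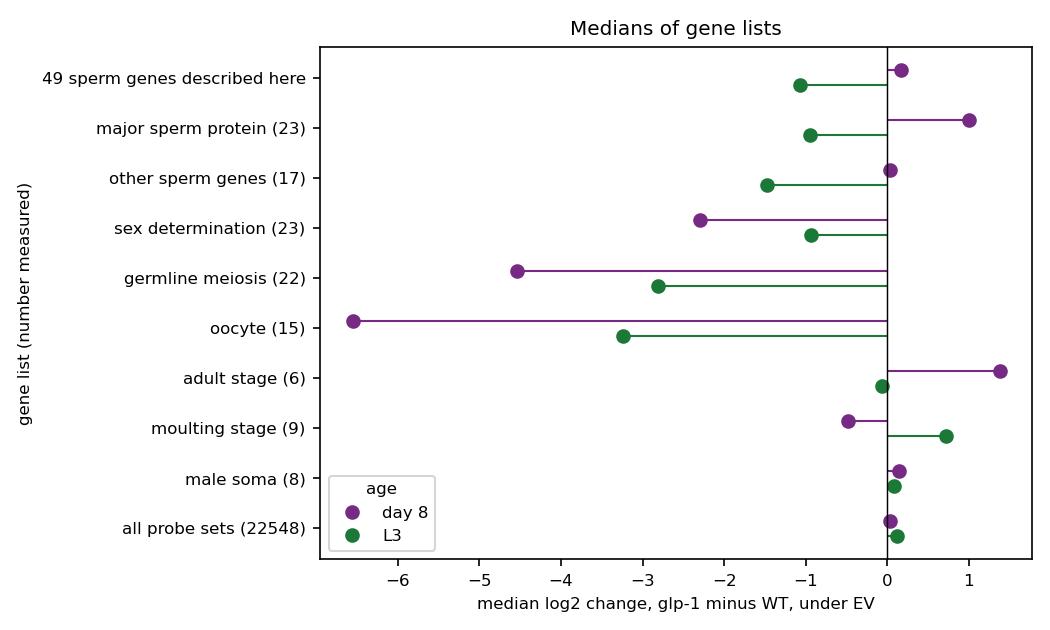
Median log2 changes, glp-1 minus WT under EV, are shown for the 49 sperm genes, for related gene lists and for all 22548 probe sets on day 8 (purple) and at L3 (green). On day 8 oocyte (−6.55), meiosis (−4.54) and sex determination (−2.30) genes lie far left, while the sperm genes (0.16), other sperm genes (0.04) and msp genes (1.01) lie at or right of 0; at L3 all these lists lie left of 0.

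The 49 genes were also set on the order of protein-coding genes in the RefSeq table of assembly WBcel235. Within 5 genes on either side, 7 of the 49 (14.3%) had another gene of the naming rule, against 2.85% of 19889 other protein-coding genes with msp genes left out. An msp gene lay that near to 2 of the 49 (4.08%), against 0.835% of the others. The rule selects families, so this is a description of the families. Of the 4 neighbouring pairs 3 joined an nspd to an ssp gene: nspd-1 with ssp-16, nspd-2 with ssp-10, and nspd-8 with ssp-19. Members of a pair did not always change alike, since on day 8 under EV ssp-10 changed by 2.50 and nspd-2 by 0.30, which did not pass.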

How the data were processed

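RNA from whole worms was measured on 23 arrays, 1 sample each, labelled with biotin per the labels' protocols. The authors deposited log2 intensities, 1 value for each probe set and array, computed by RMA per the submitters' processing notes. The sources used here give neither its version nor the chip definition. RMA was apparently run within each age, since array medians differ between ages, and a level near the floor understates a change. The submitters left out day 8 WT EV sample 3 for quality, per the labels.

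All 22548 probe sets were used as deposited, with 6 empty cells in 5 of them and none in the sperm genes. Names came from the platform annotation, in which 20766 probe sets name 1 gene, 887 several and 895 none, and 20701 matched the RefSeq table of assembly WBcel235 by Entrez gene identifier. Probe sets ending in _s_at or _x_at (6711, and 18 of the 49 sperm genes) may also detect other transcripts, and the text calls them shared.

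Linear models with 1 mean for each group were fitted in limma 3.58.1 (R 4.3.3, eBayes defaults, two-sided), separately for day 8 (11 arrays) and L3 (12 arrays); the genotype by age interaction used all 23. The Benjamini-Hochberg adjustment ran over the whole table, and rise or fall means an adjusted p under 0.05. The fit was tested on simulated data. Per comparison the genes named are up to 8 rises and 8 falls among those that passed, or the 4 smallest p where none did, and in each comparison gsp-3, gsp-4, snf-10, try-5, swm-1, spe-44, spe-6, spe-9, spe-11 and fer-1; the other sperm genes are named more briefly. The genes and lists were chosen with earlier results of these data known. The number of arrays limits the precision. Alternatives were quantile normalization, centring on the array median, dropping shared probe sets or the dimmest 40 percent, averaging the probe sets of a gene, eBayes with trend and robust options, only the groups compared, replicate number as a block, and leaving out each array in turn. Samples with the same replicate number were checked for deviating together within an age: their correlations ran from −0.42 to 0.49 over 33 pairs (median 0.04), against −0.55 to 0.55 over 66 pairs of different number (median −0.04), and nothing in the labels ties a number to a shared culture or day. At L3 16 of 18 same-number correlations were above 0, and on day 8 5 of 15. The 3 pairs of L3 WT ash-2 RNAi and L3 WT EV all exceeded 0.1 (0.14 to 0.49), and in no other pair of groups did every same-number pair do so. The values reported for that comparison are nevertheless from the fit without pairing. Replicate number as a block, run as an alternative on all 12 L3 arrays, left the count of that comparison at 0.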

Additional observations from a re-analysis of the deposited data

Results flagged for a closer look

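The genotype difference under EV depended on age for 40 of the 49 sperm genes, by a test of the difference itself (glp-1 minus WT on day 8, minus the same at L3; log2). Among organelle and spermatid formation genes these values were 2.13 for spe-26, 1.97 for spe-4, 1.79 for spe-18, 1.26 for spe-10, 0.98 for spe-6 and 0.82 for spe-15. In the same class the value was −0.95 for spe-5 and −0.92 for spe-39, which fell further on day 8. Among the phosphatases it was 2.80 for gsp-3 and 2.60 for gsp-4.

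Activation genes gave 1.85 for spe-46, 1.78 for spe-47, 1.69 for try-5, 1.47 for spe-8, 1.39 for swm-1, 1.34 for spe-27, 0.72 for spe-19, 0.64 for spe-12, 0.63 for snf-10 and 0.59 for spe-43. Genes of fusion, fertilization and egg activation gave 3.37 for spe-11, 1.3 for spe-41, 0.65 for fer-1, 0.43 for spe-9 and 0.28 for spe-49.

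In the ssp family the values were 3.74 for ssp-10, 3.02 for ssp-16, 1.86 for ssp-35, 1.58 for ssp-34, 1.20 for ssp-31, 1.03 for ssp-37 and 0.96 for ssp-33. In the nspd family they were 2.52 for nspd-7, 1.92 for nspd-4, 1.74 for nspd-1, 1.37 for nspd-2 and 0.90 for nspd-9. Other spe genes gave 1.76 for spe-55, 1.41 for spe-54 and 0.83 for spe-21. Of these 40 calls 8 did not hold in some alternative or without some 1 array, and over all probe sets 52.7% passed this test. A positive value need not be a rise on day 8. Of the 38 genes that fell at L3 under EV, 25 did not pass on day 8. Of the 31 genes that did not pass on day 8, 22 lay among the dimmest 40 percent of probe sets.

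The response to ash-2 RNAi on day 8 differed between the genotypes for ssp-10, at −1.63 in glp-1 relative to WT, a result that rests on a shared probe set.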

How the results depend on the processing

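No passing result changed direction under any alternative run. Leaving out the shared probe sets leaves 31 of the 49 genes, and the numbers passing for glp-1 against WT became 10 on day 8 and 23 at L3 under EV, 10 on day 8 and 21 at L3 under ash-2 RNAi, 23 for the genotype by age interaction, 1 for the RNAi comparison in day 8 glp-1 worms and 0 for the RNAi by genotype interaction on day 8, since ssp-10 is read on a shared probe set. In the RNAi comparison of L3 glp-1 worms the single passing gene became 2 under array median centring, without the dimmest 40 percent, without shared probe sets, with probe sets of a gene averaged and with the replicate block, and 0 with only the groups compared; this last fit gave 1 for day 8 glp-1 worms in place of 3. With each array left out in turn, the numbers passing ranged, for the genotype on day 8, from 13 to 18 under ash-2 RNAi and from 12 to 19 under EV, for the genotype at L3 from 36 to 38 under ash-2 RNAi and from 38 to 43 under EV, and from 34 to 41 for the genotype by age interaction. For ash-2 RNAi they ranged from 0 to 0 in L3 WT, 0 to 2 in L3 glp-1, 0 to 1 in day 8 WT and 2 to 4 in day 8 glp-1, and for the RNAi by genotype interaction from 0 to 1 at L3 and from 1 to 1 on day 8. Of the 18 day 8 genotype calls under EV 8 were lost without some 1 array, against 2 of 40 at L3. The replicate block kept 154 calls of single genes and lost 4: spe-47 with ash-2 RNAi on day 8 in glp-1 worms, gsp-4 and spe-43 for the genotype on day 8 under ash-2 RNAi, and spe-49 for the genotype by age interaction. Centring on the array median moved the median of all probe sets for glp-1 against WT at L3 under EV to 0.22 and that of the genotype by age interaction to −0.25. Quantile normalization took spe-6, spe-9, spe-21, spe-43, spe-49 and fer-1 out of that interaction. The cause of these moves was not tested. On day 8 only 23 of the 49 genes lay above the dimmest 40 percent of probe sets, which limits what that age can show.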

Other observations

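Under ash-2 RNAi, 9 sperm genes were higher in glp-1 than in WT worms on day 8 and lower at L3 (gsp-4, nspd-7, spe-4, spe-11, spe-26, spe-47, spe-54, ssp-10 and ssp-35). Another 5 were lower at both ages (snf-10, spe-5, spe-6, spe-39 and spe-44), and 21 were lower at L3 without passing on day 8. Of all probe sets 28.2% were higher and 25.4% lower on day 8, and 28.1% and 20.8% at L3. Shares of all probe sets for the 2 ages combined were not taken. The 6 genes nspd-8, spe-36, spe-48, spe-51, ssp-19 and ssp-37 passed in no genotype comparison under either treatment.

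The adult-stage list, yolk protein genes and col-19, moved with genotype on day 8. Under EV all 6 measured genes were higher in glp-1 than in WT worms on day 8 (median log2 change 1.38), and none passed at L3 (median −0.07). Under ash-2 RNAi 6 of 6 were higher on day 8 (median 1.69) and 5 of 6 at L3 (median 0.72). The shares of all probe sets that were higher were 28.3% on day 8 and 33.4% at L3 under EV. Under ash-2 RNAi they were 28.2% and 28.1%.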
